A study of Mus musculus with 12 samples.

Results

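The genes described here keep proteins folded and cleared inside mitochondria, together with Chchd10 and its paralog Chchd2, small proteins of the space between the mitochondrial membranes. The set has 10 members, taken by symbol: Chchd10, Chchd2, Hspd1, Hspe1, Hspa9, Dnaja3, Lonp1, Clpp, Clpx and Yme1l1. All 10 were found, 1 row each, among the 56980 genes of the count matrix, and all 10 were among the 13768 genes with enough counts to be tested. The set was selected on its CPM levels and LPD over SPD fold changes in these same livers. Those differences are therefore given as a description, and no test result is given for any single member. Their levels per gene length, their variation among livers of 1 diet, their neighbours in the genome and the other genes of the same machinery were looked at beside them.

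Bulk RNA of 12 livers was sequenced, from 6 ob/ob males on a low protein diet (LPD, 5% of energy from protein) and 6 on a standard protein diet (SPD, 25%). All mice carried the B6.Cg-Lepob/J background with the genotype Lep-/-, so the SPD mice were obese and without leptin as well, and no lean mice were included. The diets began at 8 weeks of age and lasted 3 weeks, with food freely available, and livers were taken at 11 weeks. Each liver came from a separate mouse.

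Most mitochondrial proteins are made in the cytosol and enter the organelle as unfolded chains. Hspa9 (mortalin), the mitochondrial Hsp70, pulls the chains in and binds them, and Dnaja3 is a J-domain partner that drives its ATP cycle. The chaperonin Hspd1 (Hsp60) and its lid Hspe1 (Hsp10) form a chamber in which the chains fold. Lonp1 and the pair of Clpp, a peptidase, and Clpx, its unfoldase, break down damaged proteins in the matrix, and Yme1l1 does so at the inner membrane on the side of the intermembrane space. Chchd10 and Chchd2 carry paired cysteine motifs and associate with the membrane folds called cristae. In mammalian cells, disturbed mitochondria switch on the integrated stress response, in which the transcription factors ATF4, CHOP (Ddit3) and ATF5 act. Amino acid shortage switches on ATF4 as well, through another kinase.

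The genomic stretches in front of Chchd10 and between Hspd1 and Hspe1 are shown because 2 of the patterns below concern them. Sequences are from RefSeq on GRCm38.p6, which gave promoter windows, from 250 bases before a start to 50 after it, for 8 members. Chchd2 and Hspa9 had no entry. The 250 bases before the RefSeq start of Chchd10 lie at chr10:75932880-75933129 on the plus strand, and capitals mark 2 copies of TGATGCAA, which fits TGATGNAA, the core of the amino acid response element that ATF4 dimers bind.
Chchd10 upstream: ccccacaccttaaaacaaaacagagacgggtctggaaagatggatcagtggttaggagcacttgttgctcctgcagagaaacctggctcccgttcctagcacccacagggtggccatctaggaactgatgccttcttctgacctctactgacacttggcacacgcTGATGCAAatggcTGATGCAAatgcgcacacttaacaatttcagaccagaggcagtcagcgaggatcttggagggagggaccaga
The first bases of the copies stand 85 and 72 bases before the start, 13 bases apart. Searched on both strands, TGATGNAA was present in 3.97% of 32841 RefSeq promoter windows, and 2 or more copies were present in 23 windows, or 0.07%. Among the members the core was found in Chchd10 alone. A match of letters is a description and not a site of binding.

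Hspd1 and Hspe1 are head to head on chromosome 1, with RefSeq starts at positions 55087932 (minus strand) and 55088148 (plus strand). Hspd1 has a further RefSeq start at 55088243, within Hspe1, and its window was searched too. The 215 bases between them, chr1:55087933-55088147, are printed on the plus strand, and capitals mark GAACCTTC, which fits GAANNTTC, the inverted repeat unit of the heat shock element.
Hspd1 to Hspe1: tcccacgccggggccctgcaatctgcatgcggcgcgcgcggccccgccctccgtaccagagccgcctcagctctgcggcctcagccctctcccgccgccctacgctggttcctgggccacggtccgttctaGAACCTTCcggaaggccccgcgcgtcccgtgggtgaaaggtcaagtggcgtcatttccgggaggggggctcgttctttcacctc
The match begins 84 bases before the Hspe1 start, and on the other strand 139 bases before the Hspd1 start. GAANNTTC was present in 7.86% of the 32841 windows, and among the members in those of Hspd1 and Hspe1 only, which share this stretch. The last bases of the match overlap CTTCCG, the reverse of CGGAAG, the core bound by ETS factors such as GABP. CGGAAG was in the windows of 5 of the 8 members (Hspd1, Hspe1, Dnaja3, Clpp and Yme1l1), against 16.9% of all windows. Hspd1 and Hspe1 share matches to it in this stretch. The NRF-1 motif was in the windows of Hspd1 and Dnaja3, against 4.6%. The NF-Y motif CCAAT was in 4 of 8, against 37.4%, and the estrogen-related receptor motif TCAAGGTCA in 0 of 8, against 0.423%. These shares cover all RefSeq windows, also those of genes not tested here. Of the 10394 tested genes with a window, 3516 had CGGAAG in at least 1, 1140 the NRF-1 motif and 4481 CCAAT. The estrogen-related receptor motif was in windows of 33 of them, GAANNTTC of 734 and TGATGNAA of 297. A motif that is missing here is only missing from these windows.

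Levels below are CPM, read counts scaled to the library total, with TMM-scaled totals. Log2 fold changes compare LPD with SPD, positive where LPD is higher, and come with their standard errors (SE) from an edgeR quasi-likelihood fit over all tested genes. A gene was called at a Benjamini-Hochberg adjusted p under 0.05. That rule is used below for genes outside the set, and for the members only as a count. By it 2850 of all tested genes (20.7%) were higher in LPD livers, 2646 (19.2%) lower, 39.9% in either direction, and 8272 were not called. Of the 10 members, 6 were called higher, 0 lower and 4 not called. All 6 LPD livers lay above all 6 SPD livers for 5 members, against 10.1% of all tested genes (19.9% did not overlap in either direction). Since the members were chosen by this contrast, nothing is read from these shares. In bulk tissue, fewer cells of a type and less RNA per cell cannot be told apart.

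**Figure D1:**
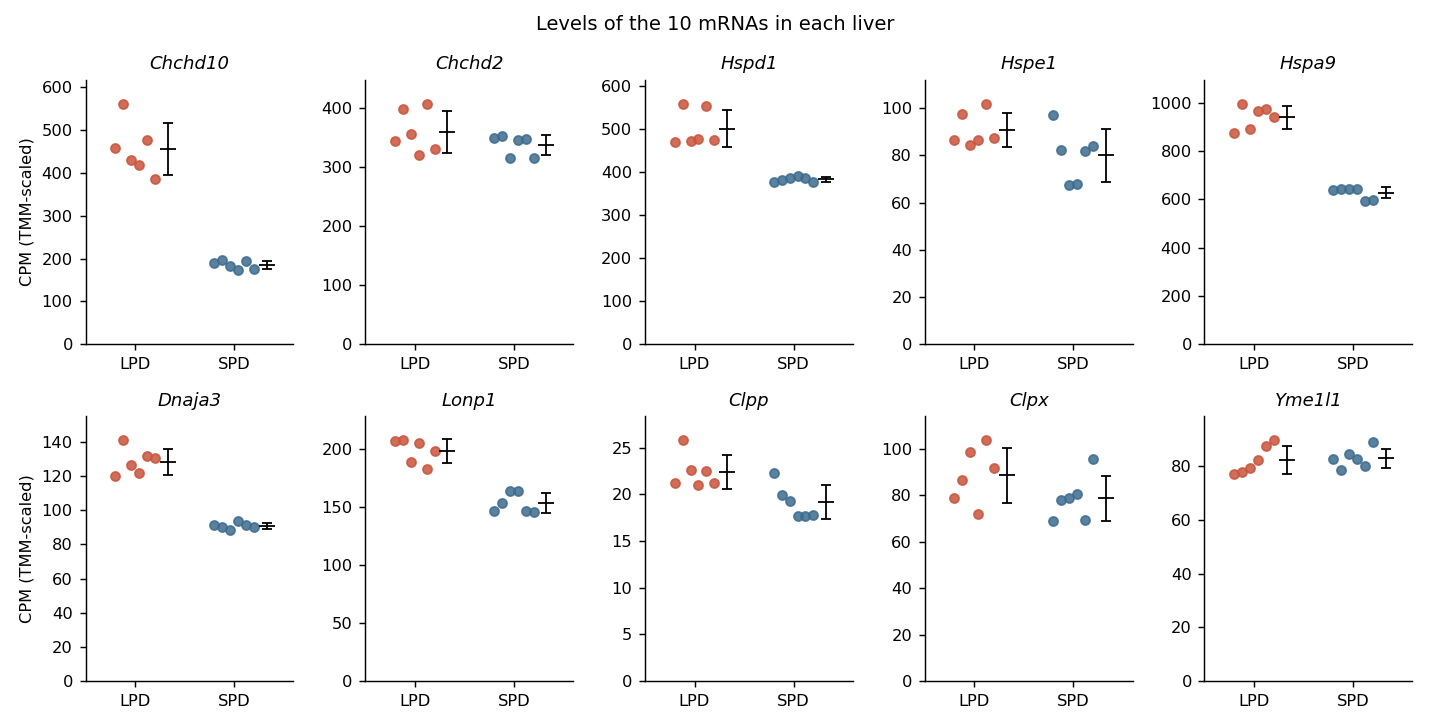
Level of each of the 10 mRNAs (CPM, each axis from 0) in the 6 LPD and 6 SPD livers, 1 point per liver in the order of the replicate numbers, with mean ± SD in black. The LPD points of Chchd10 lie between 386 and 562 CPM and all SPD points between 174 and 197 CPM, while the points of Yme1l1 cover the same range in both diets.

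Chchd10 (ENSMUSG00000049422, chromosome 10, 75933130 to 75937747, plus strand, GRCm38), whose mutations cause motor neuron disease and myopathy in humans, differed most. Chchd10 had 459, 562, 431, 418, 477 and 386 CPM in LPD replicates 1 to 6, against 189, 197, 183, 174, 194 and 175 CPM in SPD replicates 1 to 6. The lowest LPD liver thus stood well above the highest SPD liver. Chchd10 averaged 455 ± 61.0 CPM in LPD livers and 185 ± 9.74 CPM in SPD livers (SD, n = 6 each), a 2.46-fold difference (log2 fold change 1.30 ± 0.080 SE). Of all 13768 tested genes, 105 had a larger positive fold change. Among the 510 genes whose mean log2 CPM was 8 or more, where counting error is small, 14 did.

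The relative spread of Chchd10 was wider in LPD livers, with a coefficient of variation (CV) of 13.4%, than in SPD livers, with 5.26%. Counting error alone gives CVs of 1.01% and 1.61%. Without LPD replicates 2 and 5, which stood apart from the other LPD livers in an earlier analysis of these data, the log2 fold change of Chchd10 was 1.20. The title and library code of LPD replicate 1 name the low protein diet, but its treatment and description labels name the standard one. Its 459 CPM of Chchd10 lay inside the range of the other LPD livers, and counting it as SPD gave a log2 fold change of 1.02. On the opposite strand the gene model of Chchd10 overlaps Mmp11, a matrix metalloproteinase gene, by 3367 bases, of which 155 are exonic in both and make up 9.84% of the Chchd10 exon bases. The handling of strand by the counting program is not given in the sources used here. Mmp11 itself stood at 0.322 to 0.967 CPM in LPD livers and 0.348 to 0.819 CPM in SPD livers.

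Chchd2 (ENSMUSG00000070493, chromosome 5, 129881156 to 129887470, minus strand), the paralog of Chchd10 and partner in a complex with it, had 320, 351 and 408 CPM in LPD livers, against 316, 347 and 353 CPM in SPD livers (lowest, median and highest). The diets overlapped, with 3 of 6 LPD livers above every SPD liver (log2 fold change 0.090 ± 0.067). Per kb of gene length, Chchd10 reached 0.717 to 0.865 of the level of Chchd2 in LPD livers (median 0.772) and 0.308 to 0.355 in SPD livers (median 0.341). Chchd2 thus stayed the more abundant mRNA of the pair per length in every liver. That order rests on the deposited gene length of 915 bases for Chchd2. Per kb of all GENCODE M21 exon bases, of which Chchd2 has 2269, Chchd10 averaged 289 and Chchd2 159 CPM per kb in LPD livers, against 118 and 149 CPM per kb in SPD livers. The count of Chchd2 was not whole in all 12 libraries, and how the counting program made such values is not known; the gene lies within the gene model of Phkg1, with no exon in common.

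Hspa9 (ENSMUSG00000024359, chromosome 18), the mitochondrial Hsp70, was the member with most counts in both diets. Hspa9 had 876, 952 and 995 CPM in LPD livers, against 594, 641 and 644 CPM in SPD livers (lowest, median and highest). All LPD livers were above all SPD livers (log2 fold change 0.58 ± 0.054). Its J-domain partner Dnaja3 (ENSMUSG00000004069, chromosome 16, 4639989 to 4707695, plus strand) had 120, 128 and 141 CPM in LPD livers, against 88.3, 90.7 and 93.8 CPM in SPD livers. The diets did not overlap for Dnaja3 either (log2 fold change 0.50 ± 0.048). Per length, each liver held 6.12 to 6.88 times as much Hspa9 as Dnaja3 mRNA under LPD and 5.65 to 6.32 times as much under SPD, with overlapping ranges. Exons of Dnaja3 overlap those of Coro7 by 153 bases and those of Vasn by 160 bases. Neither neighbour was called, with log2 fold changes of 0.02 ± 0.059 for Coro7 and -0.06 ± 0.12 for Vasn.

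The chaperonin chamber gene Hspd1 (ENSMUSG00000025980, chromosome 1, 55077835 to 55088243, minus strand) had 469, 558, 471, 478, 553 and 474 CPM in LPD replicates 1 to 6, against 378, 382, 386, 390, 385 and 376 CPM in SPD replicates 1 to 6. All LPD livers were above all SPD livers, and LPD replicates 2 and 5 stood above the other 4, which lay within 10 CPM of each other. Hspd1 averaged 500 ± 42.9 CPM in LPD livers and 383 ± 5.18 CPM in SPD livers (SD, n = 6 each; log2 fold change 0.39 ± 0.059). Without LPD replicates 2 and 5 the log2 fold change was 0.31. The SPD livers were nearly equal in Hspd1, with a CV of 1.35% where counting error alone gives 1.12%, while LPD livers had a CV of 8.58%.

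Hspe1 (ENSMUSG00000073676, chromosome 1, 55088132 to 55091307, plus strand), the lid, had 86.5, 97.3, 84.3, 86.4, 101.8 and 87.5 CPM in LPD replicates 1 to 6, against 97.2, 82.1, 67.2, 67.6, 82.0 and 84.0 CPM in SPD replicates 1 to 6. SPD replicate 1 lay among the LPD livers, and the diets overlapped (log2 fold change 0.18 ± 0.085). Without SPD replicate 1 the log2 fold change was 0.24. Per length, Hspd1 exceeded Hspe1 by 1.73 to 1.83 times in LPD livers, with a median of 1.75. In SPD livers the ratio ran from 1.24 to 1.84, with a median of 1.49, so that the LPD range lay inside the SPD range. The size of the ratio rests on the deposited gene length of 774 bases for Hspe1. Per kb of all GENCODE M21 exon bases, of which Hspe1 has 1474, Hspd1 averaged 189 and Hspe1 61.5 CPM per kb in LPD livers. In SPD livers they averaged 145 and 54.3 CPM per kb. The gene models of Hspd1 and Hspe1 overlap by 112 exonic bases, 7.60% of the exon bases of Hspe1, and their reads there could be told apart only by strand. Rows named as pseudogenes held at most 4 counts in any library for Hspd1 and 0 for Hspe1, Hspa9 and Chchd2.

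Lonp1 (ENSMUSG00000041168, chromosome 17, 56614297 to 56626887, minus strand), the matrix protease that also degrades TFAM, had 182, 202 and 207 CPM in LPD livers, against 146, 150 and 164 CPM in SPD livers (lowest, median and highest). All LPD livers were above all SPD livers (log2 fold change 0.37 ± 0.053). LPD replicate 5 was the lowest LPD liver for Lonp1, while it was the highest for Chchd2, Hspe1 and Clpx. The peptidase Clpp (ENSMUSG00000002660, chromosome 17, 56990305 to 56996188, plus strand) had 20.9, 21.9 and 25.8 CPM in LPD livers, against 17.7, 18.6 and 22.3 CPM in SPD livers. The diets overlapped through SPD replicate 1 (log2 fold change 0.23 ± 0.071), and without LPD replicates 2 and 5 the log2 fold change was 0.17.

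Clpx (ENSMUSG00000015357, chromosome 9, 65294260 to 65330658, plus strand), the unfoldase that feeds Clpp, had 72.1, 89.3 and 104 CPM in LPD livers, against 69.1, 78.5 and 95.6 CPM in SPD livers. The ranges largely overlapped (log2 fold change 0.17 ± 0.094), and without SPD replicate 6 the log2 fold change was 0.24. The ratio of Clpx to Clpp per length was 1.15 to 1.57 in LPD livers and 1.06 to 1.83 in SPD livers. Yme1l1 (ENSMUSG00000026775, chromosome 2, 23156369 to 23199260, plus strand), the inner membrane protease, had 77.0, 80.9 and 89.6 CPM in LPD livers, against 78.5, 82.6 and 88.9 CPM in SPD livers. Its log2 fold change was -0.01 ± 0.052, and the LPD range enclosed the SPD range.

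**Figure D2:**
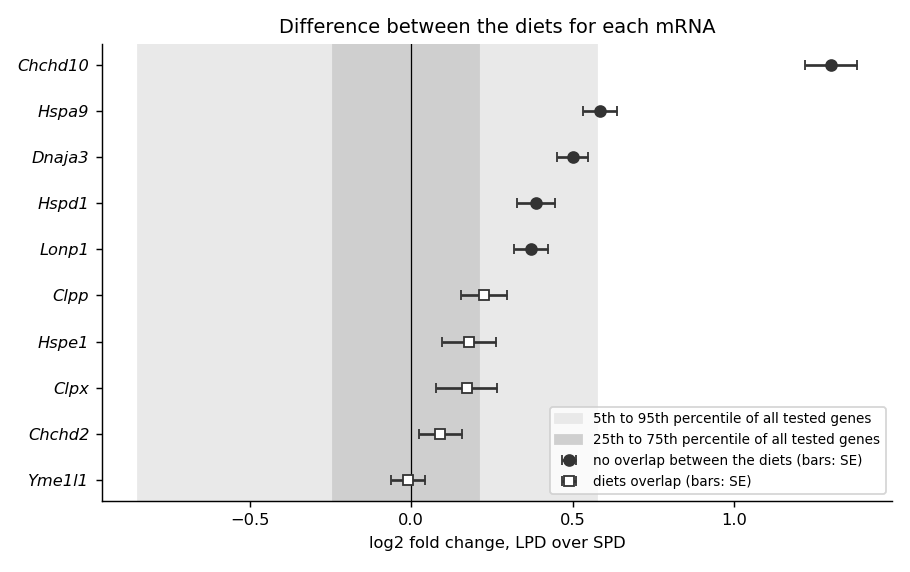
Log2 fold change, LPD over SPD, of the 10 mRNAs with its SE as bars, over grey bands for the middle of all 13768 tested genes. Chchd10 at 1.30 lies far right of the outer band, which ends at 0.57, and Hspa9 at 0.58 lies at its edge, while Yme1l1, Chchd2, Clpx and Hspe1 lie within the inner band, from -0.24 to 0.21.

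The median log2 fold change of the 10 members was 0.30, against -0.00059 over all tested genes, whose 5th and 95th percentiles were -0.85 and 0.57. The members differed in how they stood to each other per kb of the deposited gene length. In LPD livers the order by mean CPM per kb was Chchd2 at 394, Hspa9 at 308, Chchd10 at 306, Hspd1 at 206, Hspe1 at 117, Lonp1 at 67.1, Dnaja3 at 48.5, Clpx at 30.7, Clpp at 22.8 and Yme1l1 at 17.5. Of these neighbours, the ranges over livers met for Hspa9 with Chchd10 and for Clpx with Clpp. In SPD livers Chchd10, at 124 CPM per kb, came after Hspd1 at 158, and its range met that of Hspe1, at 103. The ranges of Clpp, at 19.5, and Yme1l1, at 17.6, met as well. The other members kept the order of the LPD livers, Chchd2 at 370 and Hspa9 at 206 leading. Chchd10 exceeded Hspd1 per length by 1.33 to 1.64 times in LPD livers and reached 0.726 to 0.839 of it in SPD livers, so that the order of these mRNAs was opposite in every liver of the 2 diets. That order was opposite with the GENCODE lengths too, at 289 for Chchd10 and 189 for Hspd1 in LPD livers, against 118 and 145 CPM per kb in SPD livers. The order at the top of the whole set did change with the GENCODE lengths. In LPD livers it was Chchd10, Hspa9 at 218, Hspd1, and then Chchd2 at 159 CPM per kb. In SPD livers it was Chchd2 at 149, Hspa9 and Hspd1, both at 145, and then Chchd10. The members from Hspe1 down kept their order.

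Within the LPD group, replicate 2 had the highest level for 6 members, replicate 5 for 3 and replicate 6 for 1. Replicate 1 was lowest for 4 members and replicate 4 for 3. Among SPD livers replicates 2 and 4 were each highest for 3 members. Among markers of other cell types, the summed level of 11 stellate cell markers was 397 and 416 CPM in LPD replicates 2 and 5, in a range of 397 to 688 CPM over LPD livers, against 613 to 820 CPM in SPD livers. That of 10 endothelial markers was 408 and 407 CPM there, near the LPD median of 411 CPM, against 449 to 500 CPM in SPD livers. Kupffer cell and macrophage markers summed to 732 and 684 CPM in LPD replicates 2 and 5 (LPD median 932 CPM). Cholangiocyte markers summed to 47.8 and 44.7 CPM there (LPD median 66.6 CPM), and lymphocyte markers to 16.5 and 18.2 CPM (LPD median 23.1 CPM). Erythroid markers summed to 247 and 301 CPM there (LPD median 328 CPM). Hepatocyte markers summed to 95081 and 101720 CPM there, against an LPD median of 79608 CPM. The part of these cells in the members' levels was not tested.

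Variation among livers of 1 diet does not use the difference between the diets. Over the 6 LPD livers, log2 CPM of Hspd1 and Hspe1 had a Pearson r of 0.96 (exact two-sided permutation p = 0.0444) and a Spearman rho of 0.66 (exact permutation p = 0.175). The r rested on LPD replicates 2 and 5, which form a cluster of their own, and was 0.31 among the other 4. Over the 6 SPD livers the relation had the opposite sign, with r = -0.83 (exact permutation p = 0.0347) and rho = -0.89 (exact permutation p = 0.0333), and r = -0.90 without the 2 livers farthest from the median. There, however, Hspd1 varied little beyond counting error. For Chchd10 and Chchd2, r was 0.80 in LPD livers (exact permutation p = 0.0486; rho 0.83, exact permutation p = 0.0583) and 0.56 in SPD livers (exact permutation p = 0.218; rho 0.77, exact permutation p = 0.103). Without the 2 livers farthest from the median these became 0.82 and 0.86. After Benjamini-Hochberg adjustment over the 4 relations the Pearson p-values were 0.0648 for 3 of them and 0.218 for Chchd10 with Chchd2 in SPD livers, so none passed. The smallest exact permutation p that 6 livers allow for a Pearson r is 0.00139, and the difference between the diets was not tested.

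**Figure D3:**
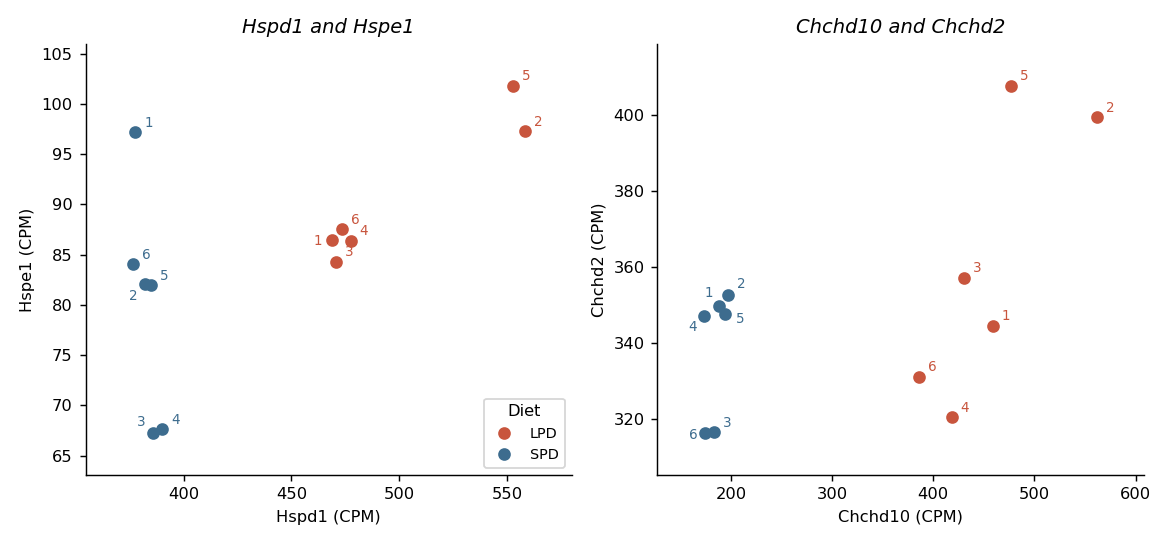
Level of Hspe1 against Hspd1 (left) and of Chchd2 against Chchd10 (right), in CPM, with 1 point per liver, the replicate number beside it, and the diet by colour; the axes do not start at 0. In the left panel LPD replicates 2 and 5 sit apart from the other 4 LPD livers, and SPD livers spread in Hspe1 but not in Hspd1.

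As a description over 11401 genes whose mean log2 CPM was 1 or more, the deviations of Chchd10 from its diet means over 12 livers were most like those of Lipc (r = 0.93), Ndufs3 (0.91), Naa60 (0.91), Glrx3 (0.91) and Vdac1 (0.89). Lipc encodes hepatic lipase, Ndufs3 a subunit of respiratory complex I, and Vdac1 the main channel of the outer mitochondrial membrane. Among the members Chchd2 was the closest to Chchd10, at 0.76 and place 222, followed by Hspd1 at 0.73. The values were 0.64 for Clpp, 0.49 for Dnaja3, 0.44 for Hspe1, 0.32 for Hspa9, 0.01 for Lonp1, -0.11 for Clpx and -0.57 for Yme1l1. The genes most like Hspd1 were Cog4 (0.98), Pm20d1 (0.97), Masp2 (0.96), Uroc1 (0.94) and Rdh7 (0.94). All these points share the 12 libraries, and LPD replicates 2 and 5 weigh on them.

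The other genes of the machinery were counted in lists that overlap in a few genes. Of 13 other mitochondrial chaperones and co-chaperones, 1 was higher in LPD livers, 3 were lower and 9 were not called (median log2 fold change 0.05). The count of lower genes was 1 when LPD replicate 4 or 6 or SPD replicate 1 or 2 was left out. The exchange factors Grpel1 (0.05) and Grpel2 (-0.10), which reset Hspa9, were not called. Dnajc11, a J-domain protein of the outer membrane, rose by 0.24 ± 0.054 (edgeR adjusted p = 0.00239), with 60.4 ± 4.59 CPM in LPD livers and 51.1 ± 1.76 CPM in SPD livers. Hscb, the co-chaperone of iron-sulfur cluster transfer, fell to 1.87 ± 0.423 CPM in LPD livers, against 3.37 ± 0.583 CPM in SPD livers (log2 fold change -0.85 ± 0.17; edgeR adjusted p = 0.00102). Trap1, the mitochondrial Hsp90, fell by 0.17 ± 0.057 on the log2 scale (edgeR adjusted p = 0.0241), a call that was lost in 8 alternative settings.

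Of 19 other mitochondrial proteases and prohibitins, 1 was higher, 8 were lower and 10 were not called (median -0.04). The 8 were both subunits of the processing peptidase that cuts off import signals (Pmpca and Pmpcb), Mipep, which trims them further, Pitrm1, which degrades the cut pieces, Spg7 and Afg3l1 of the matrix-side AAA protease, Phb and Stoml2. Without LPD replicate 4 or 6 the lower count was 5 and the higher count 3, without SPD replicate 3 the higher count was 2, and in the libraries coded SP1 and LP4 alone the lower count was 4. Spg7 fell to 42.3 ± 3.42 CPM in LPD livers, against 62.8 ± 4.36 CPM in SPD livers (log2 fold change -0.57 ± 0.064; edgeR adjusted p = 7.54e-06), with no overlap. Pmpcb fell to 121 ± 4.51 CPM in LPD livers, against 164 ± 7.52 CPM in SPD livers (-0.44 ± 0.048; edgeR adjusted p = 5.65e-06), again with no overlap. Afg3l2 (0.04), the main subunit of the matrix-side protease, and Oma1 (0.01), which cuts Opa1 under stress, were not called. Lactb, a filament-forming protein of the intermembrane space, rose by 0.28 ± 0.060 (edgeR adjusted p = 0.00184).

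Of 29 genes of the import machinery, 7 were higher, 2 lower and 20 not called (median 0.03). Of 6 small chaperones of the intermembrane space, Timm10, Timm9 (0.44) and Timm8a1 (0.49) were called higher, and Timm8b (-0.16), Timm10b (0.05) and Timm13 (0.05) were not called. Timm10 had 19.2 to 23.7 CPM in LPD livers and 13.0 to 14.2 CPM in SPD livers (log2 fold change 0.64 ± 0.062; edgeR adjusted p = 2.12e-06). Timm21, of the inner membrane translocase, rose by 0.47 ± 0.069 (edgeR adjusted p = 7.97e-05). Tomm40l, a homolog of the outer membrane pore, fell by 0.62 ± 0.11 (edgeR adjusted p = 0.000417), and Romo1, an inner membrane protein, fell by 0.31 ± 0.10 (edgeR adjusted p = 0.0226), a call lost without LPD replicate 6 or SPD replicate 1. The lower count was 5 without LPD replicates 2 and 5, and 1 without LPD replicate 6 or SPD replicate 1. It was also 1 with LPD replicate 1 counted as SPD and in the libraries coded SP1 and LP4.

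Other proteins with the paired cysteine motifs of Chchd10, with their import factors, were higher for 4 of 21 genes, lower for 3 and not called for 14 (median 0.02). Chchd4 (0.07), the receptor that oxidises such proteins on entry, was not called. Its oxidase Gfer rose by 0.36 ± 0.069 (edgeR adjusted p = 0.000668) and Chchd7 by 0.53 ± 0.13 (edgeR adjusted p = 0.00413). Cox19, a copper assembly factor of cytochrome oxidase, fell by 0.41 ± 0.064 (edgeR adjusted p = 0.000144), and Cox6b1, a subunit of that enzyme, by 0.27 ± 0.073 (edgeR adjusted p = 0.00814). Without LPD replicates 2 and 5, 2 of the 21 were higher, and 1 in the libraries coded SP1 and LP4. Of 11 genes of the MICOS complex and the cristae, 1 was higher, 2 were lower and 8 were not called (median 0.02), and 1 was lower without LPD replicate 4 or 6. Immt (0.03) and Chchd3 (0.05), core subunits, were not called, while Apool fell by 0.31 ± 0.072 (edgeR adjusted p = 0.00293).

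**Figure D4:**
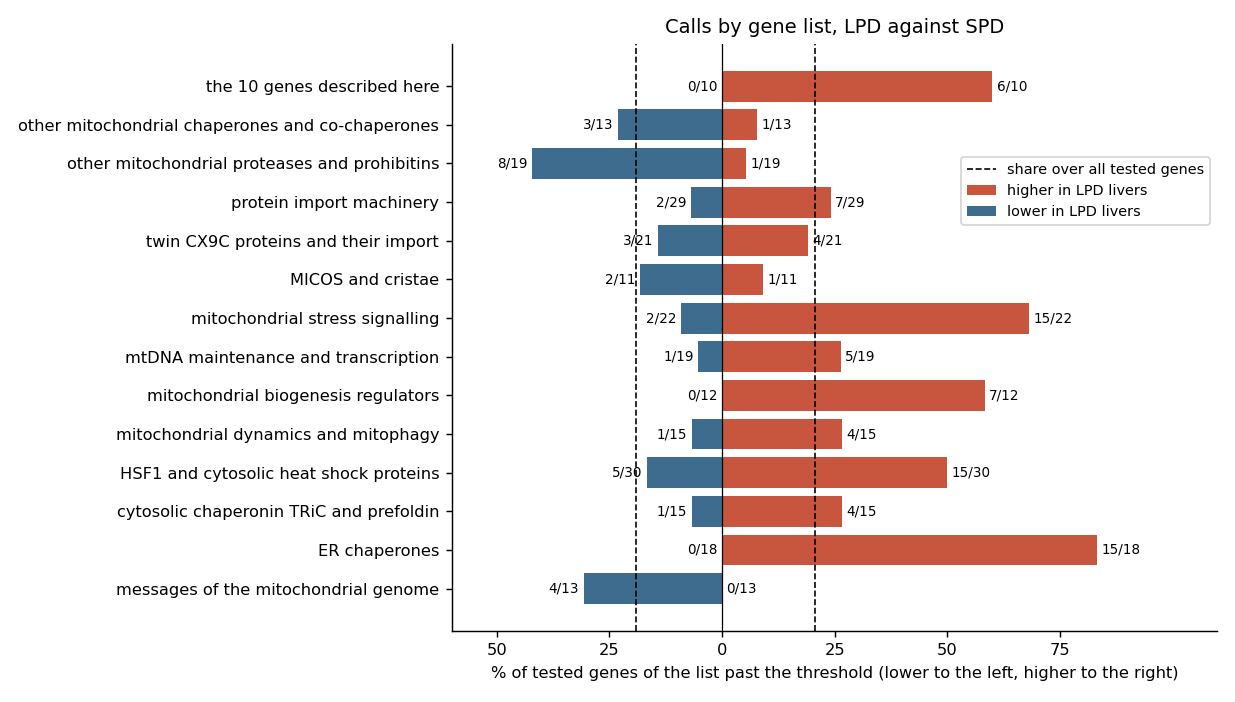
Share of the tested genes of each list that was called higher (to the right) or lower (to the left) in LPD livers, in % of the genes tested, with counts at the bar ends and the shares over all tested genes as dashed lines. The lists of ER chaperones (15 of 18) and mitochondrial stress signalling (15 of 22) reach farthest to the right, and the other mitochondrial proteases (8 of 19) farthest to the left.

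The genes of mitochondrial stress signalling and amino acid response were known from earlier results to be mostly higher in these LPD livers. Of 22 tested, 15 were higher, 2 lower and 5 not called (median 0.80); Phgdh, the 23rd named, had too few counts. Atf5, the factor tied to chaperone induction in mammalian mitochondrial stress, had 469 ± 25.9 CPM in LPD livers and 187 ± 19.8 CPM in SPD livers (log2 fold change 1.33 ± 0.071; edgeR adjusted p = 1.44e-08), a difference close in size to that of Chchd10. Atf4 was called higher as well (0.46 ± 0.15, edgeR adjusted p = 0.0227), but the diets overlapped. Its levels were 58.0 to 129 CPM in LPD livers and 55.7 to 69.5 CPM in SPD livers. Ddit3 was called higher without overlap (1.36 ± 0.26, edgeR adjusted p = 0.000681). Trib3, an ATF4 and CHOP target, had 56.1 ± 21.5 CPM in LPD livers and 7.52 ± 0.760 CPM in SPD livers (2.90 ± 0.22; edgeR adjusted p = 2.14e-07). Of genes that report mitochondrial stress to that response, Dele1 (0.23) was called higher, Eif2ak1 (0.10) and Oma1 (0.01) were not called. Eif2ak4, the amino acid sensing kinase GCN2, fell by 0.27 ± 0.086 (edgeR adjusted p = 0.0224), a call lost without SPD replicate 1 or 4. Aldh18a1, of proline synthesis, fell by 0.91 ± 0.23 (edgeR adjusted p = 0.00541). The lower count of the list was 1 also with LPD replicate 1 counted as SPD and without LPD replicates 2 and 5 together. It was 1 in the libraries coded SP1 and LP4 too. Shmt2 (-0.03) and Mthfd2 (0.70), folate enzymes of mitochondria, were not called.

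Chchd10 was 1 of 7 tested genes whose RefSeq window held 2 or more TGATGNAA cores. The 7 were gathered after the Chchd10 stretch had been read, and their values are a description. Chchd10 had the largest log2 fold change of them, at 1.30, followed by Zfp672 (0.61), Aars (0.48), the alanyl-tRNA synthetase, Sgsm3 (0.05), Slc7a7 (-0.16), Tspyl3 (-0.40) and Slc7a11 (-1.38), the cystine transporter. Of the others, Zfp672 and Aars were called higher and Slc7a11 lower. Genes with at least 1 core were called higher in 23.6% of 297 tested cases, against 21.4% of the 10394 tested genes with a window. For the heat shock unit GAANNTTC the share was 20.7% of 734.

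Of 19 genes of mtDNA maintenance and transcription, 5 were higher, 1 lower and 13 not called (median 0.13). The higher count was 3 without LPD replicate 5 or SPD replicate 4 and without LPD replicates 2 and 5 together. It was also 3 with the replicate number as a block and in the libraries coded SP1 and LP4. Tfam (0.13), the packaging factor that Lonp1 degrades, was not called. Mterf3, a transcription repressor, rose by 0.65 ± 0.077 (edgeR adjusted p = 1.31e-05), and the helicase Twnk by 0.36 ± 0.089 (edgeR adjusted p = 0.00515). Rrm2b, a ribonucleotide reductase subunit, fell by 0.36 ± 0.12 (edgeR adjusted p = 0.0296), a call lost without LPD replicate 1 or 5 or SPD replicate 1 or 5. The Rrm2b call was also lost without LPD replicates 2 and 5 together and with the replicate number as a block. It was lost as well with LPD replicate 1 counted as SPD and in the libraries coded SP1 and LP4. Of the 13 messages of the mitochondrial genome, 0 were higher, 4 lower and 9 not called (median -0.21). mt-Atp6 had 662 ± 74.0 CPM in LPD livers and 899 ± 55.8 CPM in SPD livers (-0.44 ± 0.075; edgeR adjusted p = 0.00030), and mt-Nd2 fell by 0.41 ± 0.088 (edgeR adjusted p = 0.00191). With LPD replicate 1 counted as SPD, 2 of the 13 were lower.

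Of 12 regulators of mitochondrial biogenesis, 7 were higher, 0 lower and 5 not called (median 0.22). Pprc1, a PGC-1 related coactivator, rose by 0.67 ± 0.11 (edgeR adjusted p = 0.000292), and the deacetylase Sirt3 by 0.40 ± 0.070 (edgeR adjusted p = 0.000336). Nrf1 (0.58), Gabpa (0.22) and Esrra (0.25), which bind the motifs searched above, were called higher. Gabpb1 (-0.01), the other GABP subunit gene of the list, Ppargc1a (0.18) and Ppargc1b (-0.15) were not called. Of 15 genes of dynamics and mitophagy, 4 were higher, 1 lower and 10 not called (median 0.10), and 7 were higher without LPD replicate 6. Bnip3, a mitophagy receptor, rose by 0.40 ± 0.060 (edgeR adjusted p = 0.000103), and the fusion gene Mfn2 by 0.36 ± 0.061 (edgeR adjusted p = 0.000311).

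Chaperones of the other compartments served as a comparison. Of 30 genes of HSF1 and the cytosolic heat shock proteins, 15 were higher, 5 lower and 10 not called (median 0.17). The lower count was 2 without LPD replicate 5 and 3 without LPD replicate 2 or any of SPD replicates 1 to 4, and the higher count was 9 in the libraries coded SP1 and LP4. Hsf1 (0.30) and Hsf2 (0.39) were called higher. The inducible Hspa1a (-0.45) and Hspa1b (0.09), classical HSF1 targets, were not called. Hspa1a stood at only 1.19 CPM in LPD livers and 1.62 CPM in SPD livers. Of other genes of the list, Hsph1 (0.47), Dnaja1 (0.41) and Hspb1 (0.37) were called higher, and Dnajb1 (0.02) and Bag3 (0.08) were not called. Ptges3, an Hsp90 co-chaperone, rose by 0.38 ± 0.051 (edgeR adjusted p = 3.93e-05) and Dnaja2 by 0.28 ± 0.045 (edgeR adjusted p = 0.000206), whereas Hspa4l fell by 0.38 ± 0.079 (edgeR adjusted p = 0.00149) and Hsp90aa1 by 0.29 ± 0.064 (edgeR adjusted p = 0.00202).

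The cytosolic chaperonin TRiC and its helper prefoldin had 4 higher, 1 lower and 10 not called of 15 (median -0.01). Tcp1 rose by 0.27 ± 0.045 (edgeR adjusted p = 0.000228) and Pfdn2 by 0.18 ± 0.049 (edgeR adjusted p = 0.00869), and Pfdn1 fell by 0.25 ± 0.077 (edgeR adjusted p = 0.0168). Of 18 ER chaperones and their regulators, 15 were higher, 0 lower and 3 not called (median 0.45). Xbp1, the transcription factor of the unfolded protein response, had 180 ± 17.9 CPM in LPD livers and 114 ± 11.5 CPM in SPD livers (log2 fold change 0.65 ± 0.077; edgeR adjusted p = 1.35e-05). Dnajc3 rose by 0.54 ± 0.069 (edgeR adjusted p = 2.49e-05). Hspa5 (0.62), the ER counterpart of Hspa9, was called with a log2 fold change near the 0.58 of Hspa9. No test compared the lists with each other.

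Depth was alike in the diets, with 19404340 to 23681408 counts per library in LPD livers and 19374676 to 23710930 in SPD livers, and the members had from 335 counts (the lowest for Clpp) to 23348 (the highest for Hspa9). Hepatocyte markers were present at a summed 73547 to 101720 CPM in LPD livers and 78081 to 85476 CPM in SPD livers, with 6 of 10 called higher and 0 lower. Of the other cell types, 6 of 11 stellate cell, 2 of 13 Kupffer cell and macrophage, 2 of 10 endothelial, 2 of 6 cholangiocyte, 1 of 5 lymphocyte and 1 of 1 tested adipocyte markers were lower. The tested adipocyte marker was Cidea, at 33.4 ± 5.22 CPM in LPD livers and 82.3 ± 31.4 CPM in SPD livers. The other 6 adipocyte markers had too few counts to be tested, with Adipoq at a mean of 0.0084 CPM in LPD livers and 0.025 CPM in SPD livers. Which cells the Cidea mRNA came from was not tested. Of the Kupffer cell and endothelial lists 1 marker each was higher, and 0 of 5 erythroid markers were called. The erythroid markers summed to 228 to 2128 CPM in LPD livers (median 328 CPM) and 923 to 1687 CPM in SPD livers (median 1154 CPM). The 5 tested had log2 fold changes from -1.13 to 0.02, with a median of -1.035. The 10 striated muscle markers, of a tissue rich in Chchd10, summed to 0.501 to 1.65 CPM in LPD livers and 0.243 to 1.26 CPM in SPD livers, with Myh4, Tnnc2 and Mb at 0. The brown fat marker Ucp1 was at 0 in all livers.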

How the data were processed

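RNA of 12 livers was extracted with TRIzol, treated with DNase I and prepared with an Illumina TruSeq kit, per the labels' protocols. TopHat, DESeq2 and mm10 are named, without version or role, in the submitters' processing notes. The sources used here do not give the program that counted reads, or whether it used strand. The authors deposited estimated counts (expected counts) per gene, not scaled between libraries, with a gene length column. Per library, 17.1 to 18.9% of values above 0 were fractional.

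Counts were rounded and fitted in R 4.3.3 with edgeR 4.0.16 (filterByExpr with minimum count 10 and total 15, TMM scaling, quasi-likelihood F test, adjusted by Benjamini-Hochberg over 13768 genes), tested on simulated data. SEs were derived from the fold change and its F statistic. CPM are given as mean ± SD, and log2 CPM used a prior count of 2. Genes without a symbol (1542) held 0.214% of counts. No 2 libraries were as alike as counting noise. Alternatives included DESeq2 1.42.0, limma-voom (limma 3.58.1), other scalings and filters, the replicate number as a block, and libraries left out. Coordinates are from GENCODE M21 (GRCm38).

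Members and lists were chosen with earlier results of these data known. From each list up to 2 called genes per direction with the smallest adjusted p were named, and the 5 genes most like Chchd10 and Hspd1. Values of 1 gene that the rule names are not reported here. Other list genes were named for their role after their values were seen. Library codes (SP1, SP2, LP4, LP5) occur in 1 diet each, so a batch behind a code and the diet cannot be told apart.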

Additional observations from a re-analysis of the deposited data

Results flagged for a closer look

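Clpp in LPD livers was the 1 flagged case among 20 examined (10 members in 2 diets). LPD replicate 2, at 25.8 CPM, lay so far above the next liver, at 22.6 CPM, that on the log2 CPM scale the gap was 0.635 of the whole range of the 6 LPD livers, just past Dixon's critical value. Chance flags about 1 in 20 such groups. Counting error alone gives Clpp a coefficient of variation of 4.54% in LPD livers, the highest of the members there.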

How the results depend on the processing

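Under all 23 alternatives the log2 fold changes of Chchd10, Hspa9, Dnaja3, Hspd1 and Lonp1 ran over 1.02 to 1.35, 0.53 to 0.60, 0.46 to 0.52, 0.31 to 0.41 and 0.29 to 0.39. Yme1l1, near 0, ran from -0.0323 to 0.011 with 1 library left out and changed sign without LPD replicate 1, 2 or 3 or SPD replicate 6 and with LPD replicate 1 counted as SPD (0.025). With only the codes SP1 and LP4, 4 livers per diet, 1827 genes were higher and 1693 lower, and 5 members were higher. Without LPD replicates 2 and 5 together, 5 members were higher as well. With 1 library left out, 2555 to 2803 genes were higher and 2391 to 2653 lower, and 6 to 7 members were higher and 0 to 0 lower. The correlations then ran from 0.96 to 0.98 (Hspd1 with Hspe1, LPD), -0.92 to -0.75 (SPD), 0.76 to 0.89 (Chchd10 with Chchd2, LPD) and 0.34 to 0.90 (SPD). Same-numbered livers of the diets did not deviate together (r from -0.054 to 0.097, and 1 of 6 matched its own number best), and with the replicate block 2668 genes were higher and 2562 lower, of the mtDNA maintenance genes 3 and 0. Of the named list genes' results under alternatives, 820 kept call and direction and 38 lost the call, among them Cox6b1, Twnk, Hspa4l, Hsp90aa1 and Pfdn2 with LPD replicate 1 counted as SPD, and Cox6b1, Chchd7 and Pfdn1 with the codes SP1 and LP4. Of the list counts under alternatives, 111 moved by over 1.5 times. The Clpp counts, 335 to 533 per library, limit what could be detected for it. Where the cause of a lost call is not the smaller number of livers, it was not tested. The per kb values with GENCODE lengths were added after the data were seen.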
